A study of Homo sapiens with 4 samples.

Results

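The tetraspanin genes were followed across 4 RNA-seq libraries of HT-1080, a cell line from a human fibrosarcoma. A member was any row of the deposited gene table whose symbol is TSPAN followed by a number, or is CD9, CD37, CD53, CD63, CD81, CD82 or CD151. There were 29 members among 20323 rows, and 27 of them had counts in at least 1 library. A further row that also carries the symbol TSPAN7 was set aside because its mean level was lower. All libraries were polyadenylated RNA of cells that carry a guide RNA. The guide was a control guide (genotype sgNC) in control 1 and control 2, a guide against protein kinase A in sgPKA and a guide against the RNA demethylase ALKBH5 in sgALKBH5. The sources used here do not state whether the edited cells were a clone or a pool, nor which subunit gene the sgPKA guide cuts.

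Tetraspanins are small membrane proteins that pass through the membrane several times and carry a large extracellular loop with conserved cysteines. They bind one another and partner proteins such as integrins, immunoglobulin-superfamily proteins and proteases, and so form patches in the membrane. CD9, CD63 and CD81 are widely used as markers of extracellular vesicles, CD151 binds the laminin-binding integrins, and CD82 is known as a suppressor of metastasis. One subgroup, named TspanC8 for the cysteines of its loop, carries the protease ADAM10 to the cell surface.

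The shallowest library was sgPKA with 14050867 counts and the deepest sgALKBH5 with 25937347. Each knockout has 1 library, so no difference from the controls has a replicate check, and the labels do not state whether the 2 controls came from separate cultures. In the cells with the guide against protein kinase A, the catalytic subunit gene PRKACA was at 10.6 TPM against 65.3 ± 6.76 TPM in the controls (SD, n = 2). ALKBH5 was at 37.5 TPM in sgALKBH5 against 73.9 ± 8.91 TPM. TPM is a level scaled for transcript length, with the same total in every library. Of 9 mesenchymal markers, 7 had a mean of at least 1 TPM, and their summed level ran from 8199.7 TPM in control 2 to 11022 TPM in sgALKBH5. Most of that sum was VIM, while FN1 was at 1029.5 TPM in control 1 and 118 TPM in control 2, THY1 had at most 2 counts, and COL1A2 had 0 counts in sgPKA. Of 8 leukocyte markers, 7 had counts, with a sum of at most 2.17 TPM. Those of epithelial cells summed to at most 7.68 TPM, with 0 counts for EPCAM and KRT5. Most of that sum was CLDN4, which reached 7.05 TPM from 161 counts in control 2, and KRT14 had at most 14 counts. The markers of endothelial cells, 4 of 4 with counts, summed to at most 1.20 TPM.

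Judged by the spread of differences taken over all members together, the libraries did not group by label, for the tetraspanins as for all genes. Over the 19 members with a mean level of at least 1 TPM, differences in log2(TPM + 1) between the controls had a standard deviation of 0.952. Those of sgALKBH5 from control 1 had one of 0.761 and those of sgPKA from control 2 one of 0.886. By this measure each knockout library lay nearer to a control than the controls lay to each other. The corresponding values over 11629 genes were 0.585, 0.390 and 0.547, so this was not particular to the family. Of these members, 3 were at least 2-fold apart between the controls, namely CD9, TSPAN10 and TSPAN18, against 6.41% of all 11629 genes at that level. Their differences of control 2 from control 1 in log2(TPM + 1) were -1.62, 1.67 and -3.19, so they weigh most in the spread between the controls. The order of the spreads over the 19 members did not hold without these 3 genes. Over the remaining members the spread was smallest between the controls, and only a little wider between sgALKBH5 and control 1. Values of these 3 genes are given against each control.

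Most of the tetraspanin RNA in the HT-1080 libraries came from 3 genes. The summed level of all members was 2123 TPM in control 1, 2047.5 TPM in control 2, 1901 TPM in sgPKA and 2038 TPM in sgALKBH5. CD63, CD151 and CD81 together made up between 67.4% and 68.4% of it in every library. In all, 12 members had a mean of at least 10 TPM, 7 had a mean between 1 and 10 TPM, 8 had counts but a mean below 1 TPM, and 2 (TSPAN11 and TSPAN16) had 0 counts throughout.

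**Figure D1:**
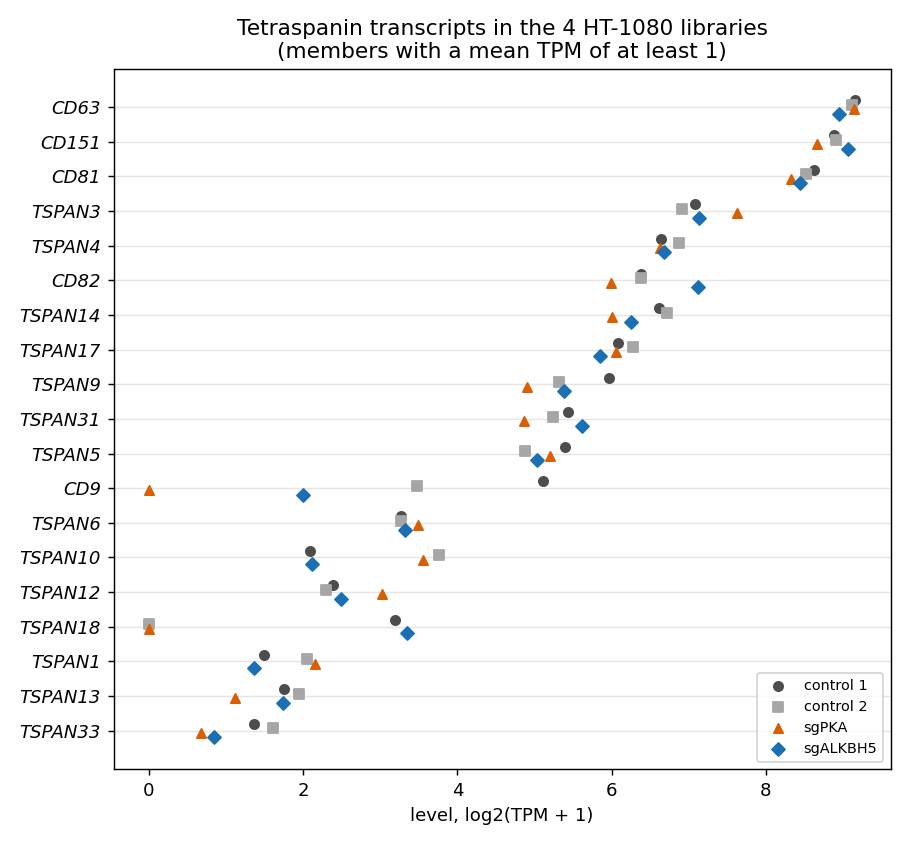
Level of each tetraspanin with a mean of at least 1 TPM, as log2(TPM + 1) on the horizontal axis, with 1 symbol per library. The symbols lie close together for most members and far apart for CD9, TSPAN10 and TSPAN18, with CD9 at 0 in sgPKA and TSPAN18 at 0 in control 2 and sgPKA.

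**Figure D2:**
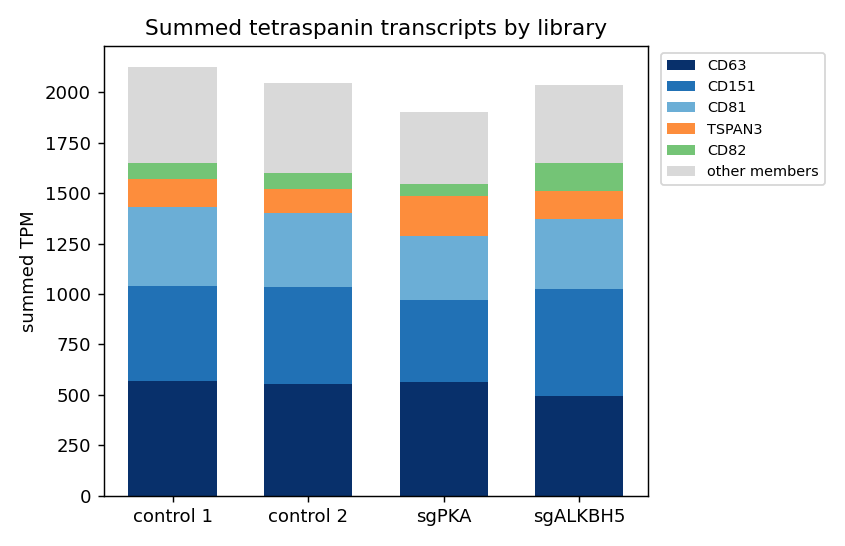
Summed TPM of all members in each library on the vertical axis, split into CD63, CD151, CD81, TSPAN3, CD82 and the other members. The bars reach 2123 TPM in control 1, 2047.5 TPM in control 2, 1901 TPM in sgPKA and 2038 TPM in sgALKBH5.

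In the controls the order of the levels was led by CD63 at 562 ± 10.8 TPM, CD151 at 474 ± 7.01 TPM, CD81 at 380.1 ± 19.8 TPM and TSPAN3 at 127 ± 10.5 TPM (SD, n = 2 for each). The values of the controls did not overlap between neighbours in this order as far down as TSPAN4 at 108 ± 12.7 TPM. TSPAN4 and TSPAN14 overlapped, as did TSPAN9 with TSPAN31, TSPAN31 with TSPAN5, and TSPAN5 with CD9, so their order is not resolved. In sgALKBH5 the first and second places were exchanged, with CD151 at 532 TPM above CD63 at 494 TPM.

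CD9 and CD81 are close relatives that bind the same immunoglobulin-superfamily proteins, and CD9 on the egg is required for fusion with sperm in mice. CD9 was the member farthest from the control mean in log2(TPM + 1) in each knockout library. It was at 33.4 TPM in control 1, 10.2 TPM in control 2, 0 TPM in sgPKA and 2.98 TPM in sgALKBH5. The counts behind these levels were 418, 138, 0 and 49. Both knockout libraries lay below both controls, and the controls themselves were 3.0-fold apart in normalised counts. In bulk RNA, fewer cells with a transcript and less of it per cell cannot be told apart.

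With 0 counts in sgPKA the change can only be bounded. Against a floor of 3 counts in that library, or 0.201 CPM, where CPM is a count scaled to the normalised library total, CD9 was at least 115-fold lower than in control 1 and at least 38.2-fold lower than in control 2. In sgALKBH5 it was 11.9-fold below control 1 and 3.98-fold below control 2. Both comparisons use the same controls. Among the 19 members, CD9 alone lay at least 2-fold below both controls in log2(TPM + 1) in sgPKA, where 1.39% of all genes did, and it alone did so in sgALKBH5, where 0.482% did. No member lay at least 2-fold above both controls in either library, against 1.04% of all genes in sgPKA and 1.03% in sgALKBH5. Over the whole table, 9487 genes had at least 100 counts in both controls, and 4 of them (0.0422%) had 0 counts in sgPKA. These were CD9, BEX1, TP53I11 and NHSL2, named after their values were seen.

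The quasi-likelihood test of edgeR, fitted over all 13061 genes that passed the filter on low counts, called 0 of 21 members tested in either comparison at an adjusted p of 0.05, as it called 0% of all genes. The p-values measure only the spread between the 2 controls, which may be technical. The lowest adjusted p of a member was 0.527 in sgPKA and 0.998 in sgALKBH5. At an unadjusted p under 0.05 it counted 3 members in sgPKA, against 9.07% of all genes, and 2 in sgALKBH5, against 2.83%. DESeq2 called 2 members lower in sgPKA, where it called 0.836% of all genes lower. These were CD9 with an adjusted p of 0.00154 by DESeq2 and TSPAN18 with one of 0.0302, and it called 0 members in sgALKBH5, where 0.255% of all genes were called. TSPAN18 had 0 counts in control 2 as well, so its call rests on control 1 alone. On log2(TPM + 1), limma called 0 of 19 members in either comparison.

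**Figure D3:**
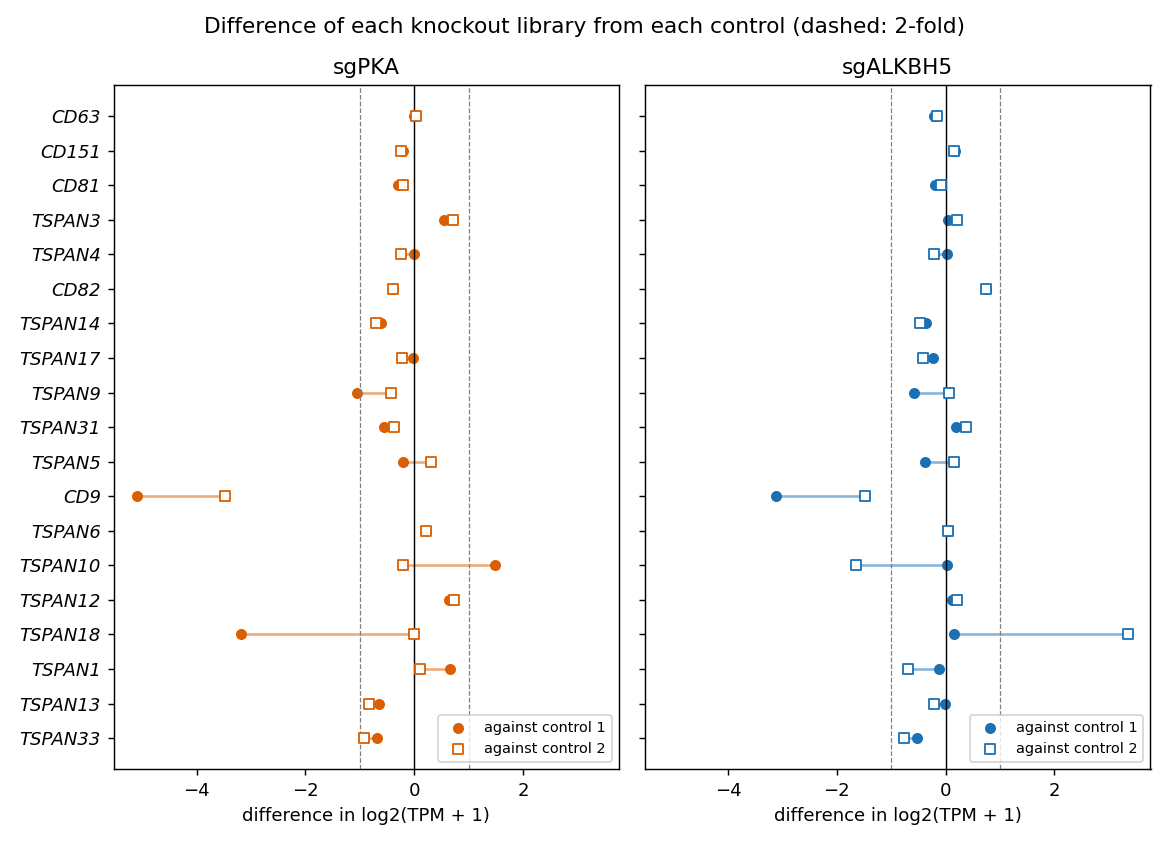
Difference in log2(TPM + 1) of sgPKA (left) and sgALKBH5 (right) from control 1 (filled circles) and control 2 (open squares), for each member with a mean of at least 1 TPM. Dashed lines mark 2-fold, and CD9 is the single member with both symbols beyond the same line, on the left in each panel.

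CD81, a receptor for hepatitis C virus, was abundant in every library. It was at 394 TPM in control 1, 366 TPM in control 2, 319 TPM in sgPKA and 346 TPM in sgALKBH5. In TPM both knockout libraries lay below both controls, sgPKA by more than the controls differed and sgALKBH5 by less. The fitted log2 fold change of normalised counts was -0.43, with a standard error (SE) of 0.20, in sgPKA and -0.24 (SE 0.20) in sgALKBH5. The other two genes of this type were near the limit of detection. TSPAN2, known from oligodendrocytes, had 15 counts in control 1 and 8 in sgALKBH5, and 0 in control 2 and sgPKA. TSPAN8, a gene of digestive tract epithelium and carcinomas, had at most 2 counts in any library.

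The promoter sequence of CD9 is shown because CD9 is the member farthest from the control mean, beside those of TSPAN14, an abundant member, and TSPAN2, a relative of CD9 that was barely detected. RefSeq sequences of GRCh38.p14 were matched for 21 of the 29 members, and CD151, CD81, TSPAN3, TSPAN9, TSPAN18, TSPAN7, CD37 and TSPAN32 are not shown. Each sequence is the 250 bases before an annotated start, written in the direction of transcription. Among the matched windows, those of CD63, CD82, TSPAN10 and TSPAN12 lie wholly or partly within the RefSeq range of the gene. Capitals mark GC boxes, the motif GGGCGG or its reverse complement CCGCCC, to which factors of the SP family bind.
CD9 (chr12:6199696-6199945, plus strand): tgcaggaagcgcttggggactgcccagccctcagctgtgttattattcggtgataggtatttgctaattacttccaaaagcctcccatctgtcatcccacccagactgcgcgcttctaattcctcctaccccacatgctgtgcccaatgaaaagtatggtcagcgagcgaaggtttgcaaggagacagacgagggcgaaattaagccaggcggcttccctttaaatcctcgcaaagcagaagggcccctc
TSPAN14 (chr10:80454060-80454309, plus strand): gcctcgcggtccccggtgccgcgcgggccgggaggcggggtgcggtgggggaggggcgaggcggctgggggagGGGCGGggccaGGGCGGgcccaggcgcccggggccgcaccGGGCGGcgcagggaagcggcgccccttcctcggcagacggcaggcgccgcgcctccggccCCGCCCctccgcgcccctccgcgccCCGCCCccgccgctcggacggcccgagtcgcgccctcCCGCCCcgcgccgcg
TSPAN2 (chr1:115089504-115089753, minus strand): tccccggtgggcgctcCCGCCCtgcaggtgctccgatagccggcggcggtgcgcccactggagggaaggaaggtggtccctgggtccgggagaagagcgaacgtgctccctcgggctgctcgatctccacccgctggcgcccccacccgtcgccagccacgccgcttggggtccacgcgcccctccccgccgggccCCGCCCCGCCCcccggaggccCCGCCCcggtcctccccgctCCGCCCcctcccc

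The window of CD9 held 0 GC boxes, that of TSPAN14 held 6 and that of TSPAN2 held 5, where overlapping matches on both strands were counted. At least 1 GC box was present in 12 of the 21 member windows and in 42.3% of 27305 windows of the same length over all genes. The cAMP response element TGACGTCA, which is bound by the protein kinase A substrate CREB, was found in 0 of the 21 windows and in 1.77% of all windows. CpG dinucleotides numbered 10 in CD9, 45 in TSPAN14 and 30 in TSPAN2, against a median of 11 over all windows. The 8 matched members with a mean of at least 10 TPM had a median of 28 CpG dinucleotides, ranging from 10 in CD9 to 45 in TSPAN14. The 7 matched members with a mean below 1 TPM had a median of 11, ranging from 1 to 32. These matches describe letters in the windows and do not show binding.

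Members of the CD63 group include the most abundant tetraspanin of these cells. CD63, which sits in late endosomes and lysosomes and is loaded onto vesicles, was at 569.8 TPM in control 1, 555 TPM in control 2, 565 TPM in sgPKA and 494 TPM in sgALKBH5. In TPM it lay between the controls in sgPKA and below both in sgALKBH5. In normalised counts it was below both in sgPKA too, at 283 CPM against 315 and 325 CPM in the controls. The fitted log2 fold change was -0.18 (SE 0.20) in sgPKA and -0.25 (SE 0.20) in sgALKBH5. TSPAN3 was at 135 TPM in control 1, 119.9 TPM in control 2, 196 TPM in sgPKA and 139 TPM in sgALKBH5. It was the only one of the 12 members with a mean of at least 10 TPM that lay above both controls in sgPKA, where 47.7% of all genes at that level did. Its fitted log2 fold change there was 0.43 (SE 0.20), and the adjusted p of edgeR was 0.532.

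TSPAN31 was first described as a gene amplified in sarcomas together with its neighbour CDK4. It was at 42.1 TPM in control 1, 36.7 TPM in control 2, 28.2 TPM in sgPKA and 47.9 TPM in sgALKBH5, below both controls in the former and above both in the latter. On chromosome 12 it lies from 57745039 to 57750219 and overlaps CDK4 in the RefSeq annotation. Its counts were not whole numbers in any of the 4 libraries, so reads were shared out between genes or transcripts and the level is uncertain. TSPAN6, which dampens antiviral signalling, varied little, from 8.62 TPM in control 2 to 10.2 TPM in sgPKA. TSPAN13 was at 2.38 and 2.87 TPM in the controls, 1.16 TPM in sgPKA and 2.34 TPM in sgALKBH5, with 16 counts in sgPKA. TSPAN7, a gene of neurons that is mutated in X-linked intellectual disability, had 12 and 17 counts in the controls, 0 in sgPKA and 7 in sgALKBH5.

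The CD151 group ranged from the second most abundant member to genes without a count. CD151 was at 469 TPM in control 1, 479 TPM in control 2, 405 TPM in sgPKA and 532 TPM in sgALKBH5. In TPM the knockout libraries lay on opposite sides of the controls by more than the controls differed, but in normalised counts sgALKBH5 was at 429 CPM against 382 and 415 CPM in the controls, closer to control 2 than control 1 was. The fitted log2 fold change was -0.42 (SE 0.21) in sgPKA and 0.11 (SE 0.20) in sgALKBH5. TSPAN4, which builds the migrasomes left behind by moving cells, was at 98.6 TPM in control 1, 117 TPM in control 2, 97.8 TPM in sgPKA and 101 TPM in sgALKBH5, a span hardly wider than that of the controls. TSPAN9, known from platelets, was at 61.3 TPM in control 1, 39.0 TPM in control 2, 28.9 TPM in sgPKA and 40.8 TPM in sgALKBH5. It was lowest in sgPKA, with a fitted log2 fold change of -0.75 (SE 0.32), but the controls lay farther from each other than control 2 did from sgPKA. TSPAN1, a gene of epithelial carcinomas that overlaps other coding genes, stayed between 1.58 TPM in sgALKBH5 and 3.44 TPM in sgPKA.

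TSPAN18, which regulates calcium entry in endothelial cells, was present in some libraries and absent from others across the labels. It was at 8.14 TPM in control 1, 0 TPM in control 2, 0 TPM in sgPKA and 9.155 TPM in sgALKBH5, from 320, 0, 0 and 459 counts. The difference between the controls is thus as large as that between control 1 and sgPKA. Against the floor of 3 counts per library, TSPAN18 was at least 106-fold lower in control 2 and at least 87.7-fold lower in sgPKA than in control 1. In normalised counts sgALKBH5 was 1.02-fold above control 1. Of 9814 genes with at least 100 counts in control 1 and sgALKBH5, 6 had 0 counts in control 2 and sgPKA, TSPAN18 among them. Of 9342 genes with at least 100 counts in control 2 and sgPKA, 0 had none in control 1 and sgALKBH5.

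TSPAN10, a TspanC8 member known from pigment cells, varied the other way. It was at 3.24 TPM in control 1, 12.5 TPM in control 2, 10.8 TPM in sgPKA and 3.33 TPM in sgALKBH5. Control 2 lay 3.91-fold above control 1 in normalised counts, while sgALKBH5 was 1.03-fold below control 1 and sgPKA was 1.36-fold below control 2. The direction in sgPKA therefore turned with the control used, upward against control 1 and downward against control 2.

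**Figure D4:**
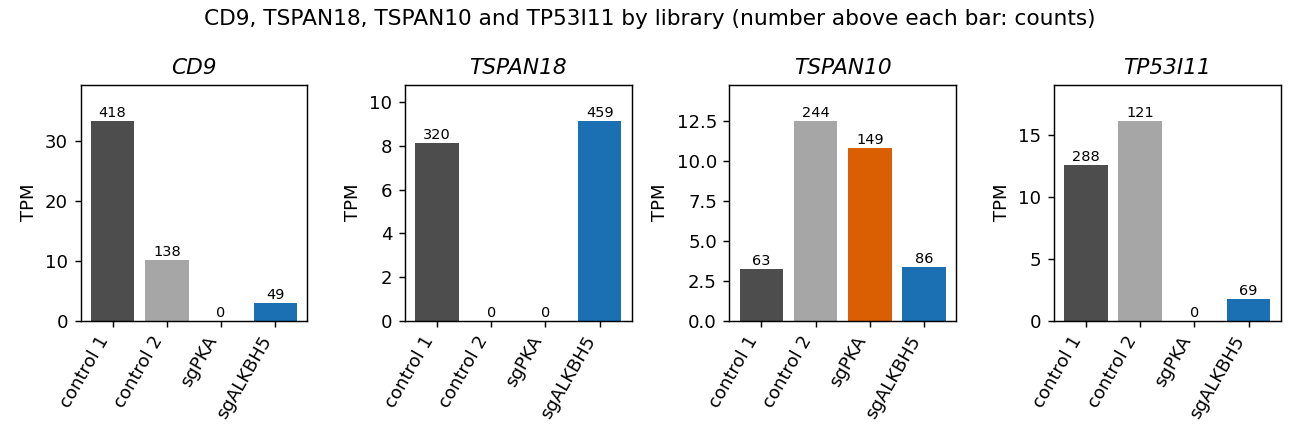
TPM (vertical axes) of CD9, TSPAN18, TSPAN10 and TP53I11, the gene that overlaps the end of TSPAN18, in each library, with the count above each bar. CD9 and TP53I11 have 0 counts in sgPKA only, TSPAN18 has 0 counts in control 2 and sgPKA, and TSPAN10 is high in those same libraries.

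The abundant TspanC8 genes were TSPAN14, TSPAN17 and TSPAN5. TSPAN14 was at 97.0 TPM in control 1, 104 TPM in control 2, 63.2 TPM in sgPKA and 75.0 TPM in sgALKBH5. Both knockout libraries lay below both controls by more than the controls differed. The fitted log2 fold change was -0.89 (SE 0.22) in sgPKA and -0.46 (SE 0.21) in sgALKBH5, and the adjusted p of edgeR was 0.527 and 0.998. TSPAN17 was at 66.8 TPM in control 1, 76.3 TPM in control 2, 65.6 TPM in sgPKA and 56.6 TPM in sgALKBH5. TSPAN5 was at 41.2 TPM in control 1, 28.5 TPM in control 2, 35.7 TPM in sgPKA and 31.6 TPM in sgALKBH5, between the controls in both knockout libraries. TSPAN33, which is known from red cell formation in mice, was at 1.58 and 2.05 TPM in the controls, 0.599 TPM in sgPKA and 0.793 TPM in sgALKBH5. Both knockout libraries lay below both controls, with a fitted log2 fold change of -1.79 (SE 0.78) in sgPKA and -1.26 (SE 0.74) in sgALKBH5. It rested on 13 counts in sgPKA and 32 in sgALKBH5. TSPAN15 had at most 3 counts in any library. Summed over the TspanC8 genes the level was 210.2 TPM in control 1, 223 TPM in control 2, 176 TPM in sgPKA and 167 TPM in sgALKBH5. Their client ADAM10 was at 37.6 and 29.3 TPM in the controls, 48.3 TPM in sgPKA and 32.2 TPM in sgALKBH5.

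After CD9, CD82 was the member that differed most between the knockout libraries among those with a mean of at least 10 TPM. It was at 82.2 TPM in control 1, 82.1 TPM in control 2, 62.7 TPM in sgPKA and 138 TPM in sgALKBH5. The controls nearly coincided, sgPKA lay below them and sgALKBH5 above. The fitted log2 fold change was -0.54 (SE 0.22) in sgPKA and 0.62 (SE 0.21) in sgALKBH5, and the adjusted p of edgeR was 0.527 and 0.998. Directly between the knockout libraries the difference in log2(TPM + 1) was 1.13, and 4 of the 19 members (CD82, CD9, TSPAN10 and TSPAN18) were at least 2-fold apart there, against 12.8% of all genes. The relatives of CD82 that mark leukocytes were almost silent, with at most 4 counts for CD37, 4 for CD53 and 5 for TSPAN32 in any library.

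TSPAN12, which joins the Norrin receptor complex in retinal vessels, was at 4.22 and 3.90 TPM in the controls, 7.15 TPM in sgPKA and 4.63 TPM in sgALKBH5. It lay above both controls in each knockout library, with a fitted log2 fold change of 0.40 (SE 0.41) in sgPKA. TSPAN19 had at most 2 counts. The 8 members with counts and a mean below 1 TPM summed to 38 counts in control 1, 22 counts in control 2, 8 counts in sgPKA and 32 counts in sgALKBH5. With sgPKA set at the floor of 3 counts, TSPAN7 was 3.29-fold lower there than in control 1 and 4.71-fold lower than in control 2. These folds leave out the counting error of the controls and are not lower bounds. The 95% interval for counting error was 6.20 to 21.0 around the 12 counts in control 1 and 9.90 to 27.2 around the 17 in control 2. With control 2 set at the same floor, TSPAN2 was 4.95-fold lower there than in control 1. The interval around its 15 counts in control 1 was 8.40 to 24.7, so this fold is not a lower bound either. Each of the other members below 1 TPM had at most 5 counts in any library.

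Taken by library, more tetraspanins were low than high in sgPKA. Differences of any size were counted here. Of the 19 members with a mean of at least 1 TPM, 11 lay below both controls, where 26.9% of all genes did, and 4 lay above both, where 50.3% did. Among the 12 with a mean of at least 10 TPM, 9 lay below both controls, against 29% of all genes at that level. The narrowest of these were TSPAN4, at 97.8 TPM in sgPKA against 98.6 TPM in control 1, and TSPAN17, at 65.6 against 66.8 TPM. In sgPKA the median difference in log2(TPM + 1) from the control mean was 0.15 over all genes and -0.23 over the 19 members. In normalised counts, where the median of all genes was -0.03, the median over the 21 members tested was -0.43. In sgALKBH5, 8 of the 19 members lay below both controls and 7 above both, where 27.5% and 39.1% of all genes did. Among the 12 with a mean of at least 10 TPM, 5 lay below both and 4 above both, against 26.8% and 40% of all genes at that level. The median fitted log2 fold change was there -0.23 over the 21 members and -0.01 over all genes. These shares describe 1 library per guide and are not a test of the family.

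Position along the genome set several members side by side. In GRCh38.p14, 6 members lie on chromosome 11 and 7 on chromosome 12, and the 6 on chromosome 11 form 3 close pairs. CD151 (832952 to 838831) and TSPAN4 (842852 to 867111) are 4020 bases apart, with the start of the polymerase subunit gene POLR2L between them, and both were abundant in every library. TSPAN32 (2302013 to 2318204) and CD81 (2376180 to 2397397) are 57975 bases apart with no coding gene starting between them. CD81 was never below 319 TPM, and TSPAN32 had 0 counts in both controls, 1 in sgPKA and 5 in sgALKBH5. CD82 (44564409 to 44620358) and TSPAN18 (44726310 to 44932423) are 105951 bases apart, again with no coding gene starting between them. CD82 was expressed in each library, including control 2 and sgPKA, in which TSPAN18 had 0 counts.

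The end of TSPAN18 overlaps TP53I11 (44932348 to 44951306), a gene induced by p53. TP53I11 had 288 counts in control 1, 121 counts in control 2, 0 counts in sgPKA and 69 counts in sgALKBH5, so it was present in control 2 where TSPAN18 was not. In TPM the controls stood in the reverse order, at 12.5 TPM in control 1 and 16.1 TPM in control 2. Why counts and TPM differ there was not tested. The next coding gene, PRDM11, was at 5.30 and 7.31 TPM in the controls, 8.05 TPM in sgPKA and 5.48 TPM in sgALKBH5. CD9 lies on chromosome 12 from 6199946 to 6238266. Its nearest coding neighbours VWF and PLEKHG6 had at most 6 counts in any library. The one after, the TNF receptor gene TNFRSF1A, was at 221 and 234 TPM in the controls, 176 TPM in sgPKA and 195 TPM in sgALKBH5. It thus kept its counts in sgPKA but lay below both controls in each knockout library. Whether the region around CD9 changed was not tested. These neighbours were chosen after the values of CD9 and TSPAN18 were seen.

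Genes that work with tetraspanins were read from 4 lists and from the tetraspanins that carry other symbols. Of the integrin and immunoglobulin-superfamily partners, 13 of 16 had a mean of at least 1 TPM, edgeR called 0 in either comparison, and the median fitted log2 fold change was -0.03 in sgPKA and 0.15 in sgALKBH5. DESeq2 called 1 of them, the integrin gene ITGB4, lower in sgPKA, where it called 0.836% of all genes lower. ITGB4 had 268 counts in control 1, 35 counts in control 2, 6 counts in sgPKA and 678 counts in sgALKBH5, low in the same libraries that lacked TSPAN18. The 3 partners with the highest mean were the hyaluronan receptor gene CD44, the membrane protease gene MMP14 and ITGA3, the integrin chain that binds CD151. ITGA3 was at 791 and 936 TPM in the controls, 1032 TPM in sgPKA and 786 TPM in sgALKBH5. CD44 was at 1337 and 789 TPM in the controls, 1058 TPM in sgPKA and 1396.5 TPM in sgALKBH5, and MMP14 at 790.2 and 1047 TPM in the controls, 1355 TPM in sgPKA and 849 TPM in sgALKBH5. ITGA4 was the 1 partner at least 2-fold above both controls, at 5.93 TPM in sgALKBH5 against 1.72 and 2.39 TPM.

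The immunoglobulin-superfamily genes IGSF8 and PTGFRN encode direct partners of CD9 and CD81. IGSF8 was at 26.1 and 18.9 TPM in the controls, 12.3 TPM in sgPKA and 26.2 TPM in sgALKBH5. PTGFRN was at 63.4 and 38.6 TPM in the controls, 37.1 TPM in sgPKA and 86.3 TPM in sgALKBH5. IGSF8 was thus lowest in sgPKA, while for PTGFRN control 2 and sgPKA nearly coincided. Both were named after their values were seen, and neither passed the test.

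In the ADAM10 and Notch list, 13 of 13 genes had a mean of at least 1 TPM, and 0 were called by edgeR or DESeq2 in either comparison. The median fitted log2 fold change was -0.07 in sgPKA and 0.18 in sgALKBH5. Its 3 most abundant genes were APH1A, NOTCH2 and NCSTN. The secretase subunit gene APH1A ranged only from 152 TPM in control 1 to 175 TPM in sgALKBH5, the receptor gene NOTCH2 from 91.3 TPM in control 1 to 127 TPM in sgPKA, and the secretase subunit gene NCSTN from 85.0 TPM in control 2 to 119.5 TPM in sgALKBH5.

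The extracellular vesicle list had 17 of 17 genes with a mean of at least 1 TPM and 0 calls by edgeR or DESeq2 in either comparison. Its median was 0.17 in sgPKA and -0.07 in sgALKBH5. The chaperone gene HSPA8 was at 2553 and 2478 TPM in the controls, 3272 TPM in sgPKA and 2668 TPM in sgALKBH5. The syndecan gene SDC1 ranged from 327 TPM in sgPKA to 381 TPM in control 1, and the lysosomal membrane gene LAMP1 from 276 TPM in control 1 to 323 TPM in sgALKBH5. RAB27B, a small GTPase of vesicle secretion, was the 1 gene at least 2-fold above both controls, at 8.38 TPM in sgPKA against 2.63 and 2.07 TPM.

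The L6 family resembles tetraspanins in its passage through the membrane but is a separate family. Of its 6 genes, 2 had a mean of at least 1 TPM, and edgeR and DESeq2 called 0. TM4SF1 was at 393 and 524 TPM in the controls, 636 TPM in sgPKA and 284 TPM in sgALKBH5. TM4SF19 was at 37.9 and 78.1 TPM in the controls, 166.5 TPM in sgPKA and 31.0 TPM in sgALKBH5. It lay at least 2-fold above both controls in sgPKA, as 1.04% of all genes did. TM4SF1 and TM4SF19 were both highest in sgPKA and lowest in sgALKBH5, the reverse of CD82. Of the 4 tetraspanins with other symbols, ROM1 alone had a mean of at least 1 TPM, at 2.16 and 2.06 TPM in the controls, 1.92 TPM in sgPKA and 4.44 TPM in sgALKBH5. PRPH2, UPK1A and UPK1B had at most 4 counts in any library.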

How the data were processed

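Messenger RNA of 4 HT-1080 libraries was sequenced. The authors deposited 1 table with expected counts, not normalised, and TPM per gene and library. Per the submitters' processing notes, the tools were RSEM, StringTie 1.3.1, HISAT2 2.1.0 and fastp 0.18.0 with the build GRCh38.p14, and they do not say which tool made the values. Neither the annotation release nor the strand setting is given in the sources used here, so reads within the shared bases of overlapping genes cannot be assigned to either gene.

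After rounding, edgeR 4.0.16 (R 4.3.3) fitted 13061 genes past filterByExpr with TMM factors, and its quasi-likelihood p-values were adjusted by Benjamini-Hochberg at a threshold of 0.05. A single fit held all 4 libraries in 3 groups. Its 1 residual degree of freedom comes from the 2 controls, and each knockout library is assumed to vary like them. Normalised counts are CPM on TMM-scaled totals. The script was checked on simulated data. A rule without a test took members at least 2-fold from both controls in log2(TPM + 1), a scale that understates changes of low genes, at a mean of at least 1 TPM. Alternatives used DESeq2 1.42.0, limma 3.58.1 and other filters and scales. Floors are 3 counts per library and cover only the counting error of the library with 0 counts. They do not cover that of the library it is compared with.

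Members, lists and tests were chosen with earlier results of these data known. The rule for named genes gave all 4 values for members with a mean of at least 10 TPM or at least 2-fold from both controls, and took from each partner list the 3 highest genes and those at least 2-fold from both controls.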

Additional observations from a re-analysis of the deposited data

How the results depend on the processing

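The count of 0 tetraspanins called by edgeR in each comparison was also 0 with the size factors of DESeq2, without the filter on low counts, with limma and with only the 3 libraries compared. The Wald test of DESeq2 called 2 members in sgPKA and 0 in sgALKBH5, and the cause was not tested. With 1 control left out no residual degrees of freedom remain, so no test was run. The count of members at least 2-fold from both controls was 1 in each comparison. With each control left out in turn it ranged from 1 to 4 in sgPKA and from 1 to 3 in sgALKBH5, because TSPAN10 and TSPAN18, and in sgPKA also TSPAN9, then depend on a single control. With log2(TPM + 0.1) it was 2 in sgPKA, where TSPAN33 joined CD9, and 1 in sgALKBH5. CD9 lay at least 2-fold below in both knockout libraries against either control. The sign of the fitted log2 fold change differed from that of log2(TPM + 1) for CD63 and TSPAN5 in sgPKA. Against control 2 alone it turned for TSPAN5, TSPAN6, TSPAN10 and TSPAN1 in sgPKA and for TSPAN9, TSPAN5 and TSPAN2 in sgALKBH5, and against control 1 alone for TSPAN4 in sgALKBH5. No paired analysis was possible because each knockout has 1 library. Depth limits the members below 1 TPM, for which 3 counts correspond to between 0.118 and 0.201 CPM.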
